A study of Mus musculus with 4 samples.

Results

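Ly6c2 intermediate monocytes, 692 of 14451 cells kept from mouse ankle synovium, held RNA of the classical and of the nonclassical monocyte programme under the same cell barcode. They were selected on measured counts of unique molecular identifiers (UMIs, 1 per captured molecule). A member had at least 1 UMI of Ly6c2 and at least 2 UMIs of Itgal, Spn and Cx3cr1 together. It had 1 or 2 of the 5 late nonclassical genes Ace, Eno3, Cd300e, Treml4 and Adgre4 detected, and fewer than 4 of the 5 interferon genes Ifit1, Ifit2, Ifit3, Rsad2 and Cmpk2. The values of these 14 genes chose the cells, so they are given below as a description and carry no test. Baseline held 160 members, peak 368, plateau 81 and resolution 83.

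The sort took live CD45+CD11b+ cells that were negative for Ly6G, SiglecF, CD64, MHCII, Ly6C and CD177, and RNA and 92 barcoded surface antibodies were counted in each cell (CITE-seq). All mice were bone marrow chimeras, made by giving CD45.1 B6 marrow to irradiated CD45.2 B6 mice whose ankles were shielded from the irradiation. Baseline cells came from untreated chimeras at day 0. The peak library was taken at day 7, the plateau library at day 14 and the resolution library at day 56, all from chimeras with serum-transfer induced arthritis (STIA), started by a retro-orbital injection of K/BxN serum, which carries joint-directed autoantibodies. Each stage had 1 library. No label read here gives the number of mice behind a library, and the sample titles of the 3 arthritis libraries carry the tag "Clo-lip", which no label explains and which cannot be told apart from the stage.

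Classical monocytes of the mouse carry Ly6C and the chemokine receptor CCR2, leave the marrow and enter inflamed tissue, where they can become macrophages. Nonclassical monocytes carry little Ly6C and much CX3CR1, CD43 (from Spn) and the integrin CD11a (from Itgal), and crawl along the inner wall of blood vessels. A large part of the nonclassical cells arises from classical ones, through cells with an intermediate level of Ly6C, and this conversion needs the nuclear receptor Nr4a1 and is aided by Cebpb and Klf2. The enzyme Ace, the enolase Eno3 and the receptors Cd300e, Treml4 and Adgre4 mark the late part of this path.

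Surface protein was read through a DNA tag on each antibody, and the selection did not use these counts. Ly6C, CD43 and CD11a are, however, proteins of the rule genes Ly6c2, Spn and Itgal. Their antibody values are thus partly fixed by the selection. The tags below belong to the antibodies on which the protein results turn: Ly6C marks classical cells, CD43, CD11a and CD11c mark nonclassical cells, CD36 is a fatty acid and scavenger receptor, FrB is the folate receptor of tissue macrophages, and CD45.1 and CD45.2 mark donor and recipient cells. The capitals mark the 15 bases that are counted, as listed by the authors.
Ly6C: AAGTCGTGAGGCATG
CD43: TTGGAGGGTTGTGCT
CD11a: AGAGTCTCCCTTTAG
CD11c: GTTATGGACGCTTGC
CD36: TTTGCCGCTACGACA
FrB: CTCAGATGCCCTTTA
CD45.1: CCTATGGACTTGGAC
CD45.2: CACCGTCATTCAACC
The CD45.1 and CD45.2 tags differ at 11 of 15 positions, and the closest pair among the 8 tags (CD11c with CD45.1) differs at 7.

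Members made up the largest share of cells at baseline and the smallest at resolution. They were 160 of 1071 kept cells at baseline (14.9%, exact 95% interval 12.9 to 17.2), 368 of 5941 at peak (6.19%, 5.59 to 6.84), 81 of 2828 at plateau (2.86%, 2.28 to 3.55) and 83 of 4611 at resolution (1.80%, 1.44 to 2.23). With 1 library per stage there is no test between stages, and the intervals describe counting error and no spread between animals. Depth enters these shares, because a gate on UMIs is easier to pass in a deep cell: the median kept cell held 7752, 8250, 6782.5 and 4912 gene UMIs from baseline to resolution. After each cell was thinned to 2000 gene UMIs and shallower cells were left out, 28 of 988 baseline cells (2.83%), 12 of 5497 peak cells (0.218%), 6 of 2406 plateau cells (0.249%) and 30 of 4039 resolution cells (0.743%) met the rule. Baseline stayed above the 3 arthritis libraries, whereas the order of peak and resolution turned round.

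**Figure D1:**
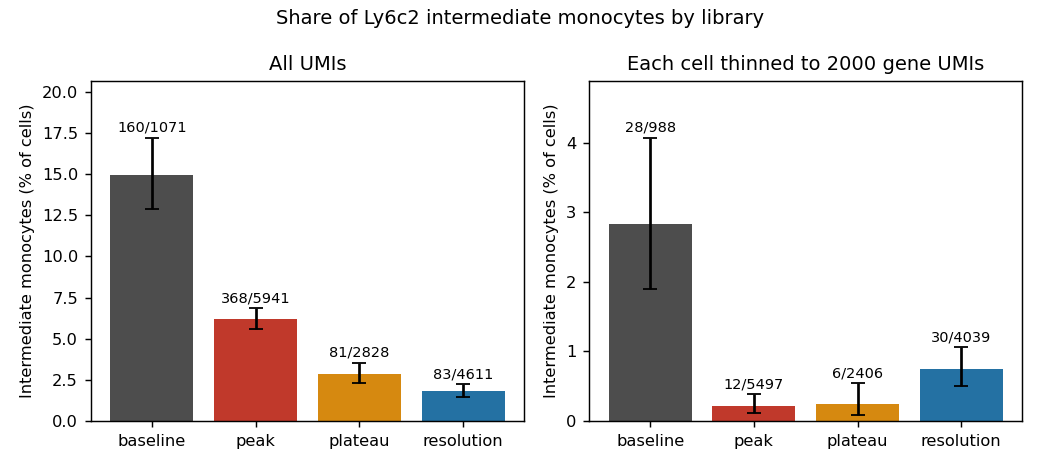
Share of kept cells that met the rule for Ly6c2 intermediate monocytes in each library (percent, bars, with exact 95% intervals of counting error), from all UMIs on the left and after thinning each cell to 2000 gene UMIs on the right, with members over cells above each bar. Baseline had the largest share in both panels, and resolution stood below peak with all UMIs and above it after thinning.

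More members carried 1 late gene than 2, and Adgre4, an adhesion receptor, was the late gene found most often in each library. Exactly 1 late gene was detected in 89 of 160 members at baseline, 279 of 368 at peak, 62 of 81 at plateau and 45 of 83 at resolution, and 2 late genes were found in 71, 89, 19 and 38. Adgre4 was detected in 63.1%, 48.9%, 63.0% and 56.6% of members, Ace in 41.3%, 29.1%, 32.1% and 39.8%, Treml4 in 22.5%, 34.8%, 22.2% and 26.5%, and Eno3 in 16.9%, 10.1%, 6.17% and 20.5%. Cd300e, the last of the 5, was detected in 0.625% of members at baseline, 1.36% at peak, 0 at plateau and 2.41% at resolution. Of the genes of the second gate, Cx3cr1 was found in 91.9%, 76.9%, 85.2% and 68.7% of members and Spn in 60.6%, 24%, 22.2% and 49.4%. Spn was thus rarer in members at peak and plateau than at baseline and resolution, and Itgal (79.4%, 76.1%, 72.8% and 59.0%) was rarest at resolution.

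Many cells sat just on either side of each limit. Exactly 1 Ly6c2 UMI was held by 20, 73, 15 and 34 members from baseline to resolution, while 52, 86, 75 and 159 cells met every other criterion with no Ly6c2 UMI. Exactly 2 UMIs of Itgal, Spn and Cx3cr1 were held by 30, 114, 28 and 32 members, and 9, 122, 33 and 33 further cells had 1. With no late gene, 130, 719, 165 and 152 cells met the other criteria, and with 3 late genes 44, 20, 3 and 31 did. Members with 3 of the interferon genes numbered 9, 26, 3 and 1, and 5, 26, 1 and 2 cells were left out with 4.

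Along the count of late genes, RNA that the rule did not use differed in the cells that passed the other gates. Pou2f2, a transcription factor of nonclassical monocytes, was at 88.1 CPM (the UMIs of a gene in the summed cells, scaled to the same total of gene UMIs in each sum) with no late gene, 166 with 1, 193 with 2, 244 with 3, 250 with 4 and 323 with 5 in baseline cells. At resolution the same steps gave 135, 237, 263, 499.9, 471 and 694 CPM, so at both stages the members, at 1 and 2 late genes, lay between the cells with none and those with 3 or more. Ccr2, the receptor that draws classical monocytes out of marrow, ran the other way at baseline, with 715 CPM at no late gene and 504 CPM at 5. The step with 5 late genes rested on 18 baseline and 8 resolution cells, and the steps with 3 and 4 rested on 20 and 16 cells at peak and on 3 and 2 at plateau. More late genes are also detected in deeper cells: the median depth at baseline was 8816 UMIs with no late gene and 22756 with 5.

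**Figure D2:**
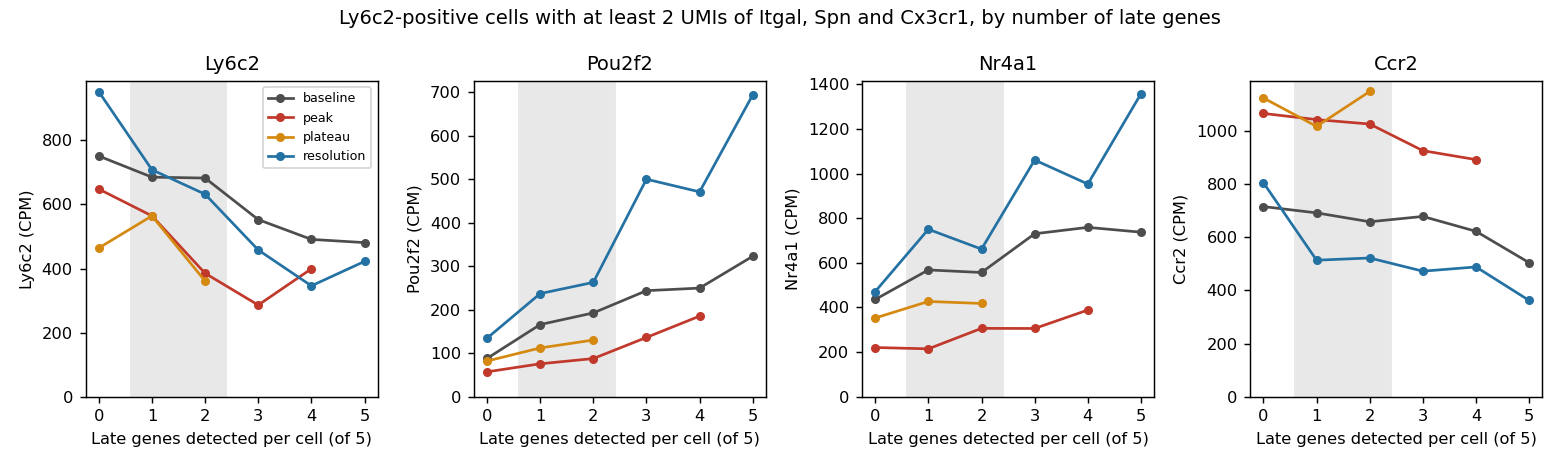
Levels of Ly6c2, Pou2f2, Nr4a1 and Ccr2 (CPM of summed cells, linear axes) by the number of late nonclassical genes detected, in Ly6c2-positive cells that passed the gates on Itgal, Spn and Cx3cr1 and on interferon genes, 1 line per library, with steps of fewer than 5 cells left out. The grey band marks the members, and Pou2f2 was higher in the members than at no late gene in each library and higher still at 3 or more late genes in the 3 libraries drawn there.

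Ly6c2 and Adgre4 belong to the rule, so their levels describe the members and are no check of the label. Members held a median of 7, 4, 3 and 2 Ly6c2 UMIs from baseline to resolution and 684, 519.6, 499.6 and 675 CPM of Ly6c2. Of other cell types, C1q-rich macrophages (at least 20 UMIs of the C1q genes) held 4.67, 317, 54.5 and 1.21 CPM, and lymphoid cells, basophils and mast cells 638, 291, 20.1 and 28.5 CPM. The lymphoid and basophil value at baseline came from 83 UMIs in 23.8% of those cells. Whether it was RNA of these cells themselves or free or shared RNA was not tested. After thinning to 2000 UMIs, 59.4%, 55.2%, 63.0% and 61.0% of members still held a Ly6c2 UMI, against 0.588%, 22.5%, 5.61% and 0.303% of C1q-rich macrophages, a gap that the rule itself opens. Adgre4 was at 62.4, 47.2, 77.6 and 123 CPM in members and 1.17, 6.30, 0.746 and 1.21 CPM in C1q-rich macrophages. Ldlrad3, a receptor-like protein given as a marker of these cells and not used to choose them, was at 50.3, 12.4, 11.7 and 62.5 CPM in members and 1.75, 3.15, 4.85 and 3.41 CPM in C1q-rich macrophages. It was thus low in members at peak and plateau. This comparison is with macrophages and does not tell members from other monocytes. Cells with no late gene that passed the other gates held 36.3, 12.5, 11.4 and 45.5 CPM of Ldlrad3 from baseline to resolution.

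RNA of other cell types sat in a small part of the members. At least 10 UMIs of the granule genes Ngp, Camp and Ltf, or of the fibroblast, osteoclast or NK and T cell lists, were held by 21, 9, 6 and 2 members, or 38 of 692. At baseline 13 members and at resolution 2 members held 99.8% and 100% of all Ngp, Camp and Ltf UMIs, and without them the level of these genes was 31.0 CPM at baseline, against 15809 CPM with them, and 0 at resolution, against 14938 CPM. Values without these 38 cells are given below where they matter; this set was chosen after seeing the data. Members with at least 5 UMIs of the C1q genes, which mark tissue macrophages, made up 0, 11.1%, 7.41% and 2.41%, and members with both CD45 antibodies 6.25%, 2.72%, 0 and 0. Between 1 and 10 cell barcodes were shared by a pair of libraries, and no barcode was a member in both. Of the sorted-out markers, Siglecf had 1 UMI or none in the members of each library, whereas Fcgr1, which codes for CD64, reached 269 and 331 CPM at peak and plateau, and MHC class II genes were present.

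Members were compared with 3 other sets of cells from the same libraries. Full-programme cells (253, 71, 17 and 403 cells) passed the same gate on Itgal, Spn and Cx3cr1 with at least 3 late genes and any Ly6c2. Ly6c2-zero counterparts (52, 86, 75 and 159 cells) met the member rule except that they had no Ly6c2 UMI. Ly6c2-high cells (52, 1074, 209 and 153 cells) had at least 3 Ly6c2 UMIs, at most 1 UMI of Itgal, Spn and Cx3cr1 and no late gene. UMIs were summed per library and set, and the 4 sums of members were tested against the 4 sums of the other set with edgeR, with the library as a block. The 14 rule genes were left out of the gene tests, whereas the antibodies against Ly6C, CD43, CD11a and CX3CR1 stayed in the antibody tests. The sets were cut on genes of the same cells. A difference in a gene or surface protein that varies together with them is thus partly fixed by the cut. Members were also the deepest of the 4 sets in each library, with medians of 13571, 10341, 8832 and 5555 gene UMIs from baseline to resolution, against 6358, 9130, 6672 and 3539 in full-programme cells, 3464.5, 8285, 8371 and 3294 in Ly6c2-zero counterparts and 7853.5, 8877, 7628 and 4949 in Ly6c2-high cells. The part that depth and the cut play in the gene and antibody results below was not tested apart from the alternatives named beside them.

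At the surface, members bound more Ly6C antibody and less CD11c antibody than full-programme cells. The Ly6C tag took 40.4, 5.1, 2.85 and 3.58% of the antibody UMIs of members from baseline to resolution, against 21.3, 2.03, 1.94 and 0.771% in full-programme cells, a log2 fold change of 1.40 (SE 0.25, adjusted p = 1.28e-05) with the higher value in members in 4 of 4 libraries. Without the 38 cells holding RNA of other types the Ly6C share of members at peak was 2.91% (9 of 368 cells left out), and the log2 fold change was 1.15 (adjusted p = 0.035). CD11c, an integrin that rises on nonclassical cells, took 0.0208, 0.0958, 0.103 and 0.112% in members and 0.143, 0.362, 0.195 and 0.379% in full-programme cells, a log2 fold change of -1.71 (SE 0.36, adjusted p = 0.000273). Of 87 antibodies tested, 3 were higher in members (3.45%: Ly6C, CD36 and CD71, the transferrin receptor) and 3 lower (3.45%: CD11c, FrB and CD274, which is PD-L1). The ranges of the sets overlapped for Ly6C, and the baseline library stood apart, since Ly6C took 26.4% of all antibody UMIs of kept cells there and 0.875% to 3.10% in the other libraries, although Ly6C-positive cells had been sorted out.

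The antibody calls depended on which cells and libraries were in the fit. With C1q-holding cells left out, no antibody passed in either direction and Ly6C had an adjusted p of 0.094, and without the peak or the resolution library Ly6C had adjusted p values of 0.103 and 0.0718. CD71 had a log2 fold change of 0.21 without cells holding RNA of other types, against 1.08 with them. CD43 took 12.9, 15, 11.3 and 22.5% in members and 20.5, 16.6, 15.6 and 33.5% in full-programme cells, lower in members in 4 of 4 libraries, with a log2 fold change of -0.31 (SE 0.23, adjusted p = 0.661).

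Against Ly6c2-zero counterparts 14 antibodies passed, and against Ly6c2-high cells none did. The Ly6C tag took 7.14, 1.67, 0.969 and 0.742% in Ly6c2-zero counterparts, a log2 fold change of 2.83 (SE 0.32, adjusted p = 3.12e-06) for members over them. Of 86 antibodies, 10 were higher in members (11.6%, among them Ly6C, CD36, CD61, CD317, CD11b, CD102, CD301b, Ly108 and Mac-2) and 4 lower (4.65%: FrB, Tim4, CD11c and CD163, which mark tissue macrophages and, for CD11c, also nonclassical monocytes). The share itself was higher in members in 4 of 4 libraries for Ly6C, CD36 and CD317 and in 3 of 4 for CD61, CD11b, CD102, CD301b, Ly108 and Mac-2, since edgeR rescales each sum. The 10 higher calls became 5 with DESeq2 size factors, 6 without the baseline library, 3 without the peak, the plateau or the resolution library, 3 without C1q-holding cells, 3 without cells holding RNA of other types and 2 without cells holding both CD45 antibodies. The 4 lower calls became 2 without the baseline library, 1 without the peak library, 1 without cells holding both CD45 antibodies and 0 without C1q-holding cells. Ly6C passed in each of these fits (adjusted p at most 0.0344), but the sets were split on its gene Ly6c2, so this is no independent support. CD36 had a log2 fold change of 2.19 (SE 0.38, adjusted p = 0.000647), and Tim4, the phosphatidylserine receptor of resident macrophages, one of -2.23 (SE 0.46, adjusted p = 0.00195). In Ly6c2-high cells Ly6C took 31.3, 3.63, 4.3 and 5.77%, and without cells holding RNA of other types the share at peak was 2.91% in members and 3.66% in Ly6c2-high cells. Against Ly6c2-high cells edgeR called 0 of 87 antibodies higher (0%) and 0 lower (0%), with 6 at an unadjusted p under 0.05, and 0 in each direction with DESeq2 size factors. The smallest p among them was that of CD120b, a receptor for tumour necrosis factor, with 0.106, 0.239, 0.308 and 0.322% in members and 0.0724, 0.226, 0.2 and 0.254% in Ly6c2-high cells and a log2 fold change of 0.57 (SE 0.16, adjusted p = 0.532).

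**Figure D3:**
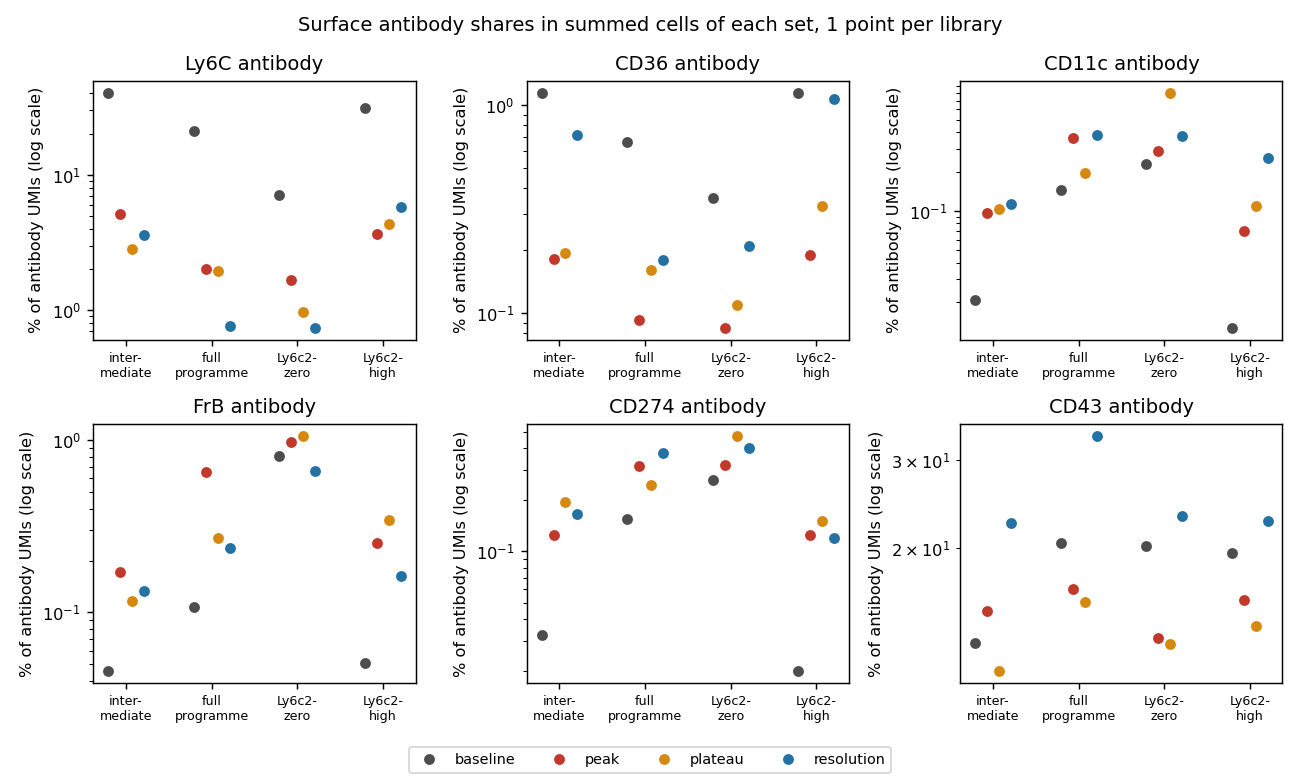
Share of all antibody UMIs taken by 6 antibodies (percent, log scale) in the summed cells of each set, 1 point per library. Members, at the left of each panel, were above full-programme cells of the same library for Ly6C and CD36 and below them for CD11c, FrB, CD274 and CD43 in 4 of 4 libraries.

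Against full-programme cells, members held less of the nonclassical programme beyond the late genes of the rule. Of 8314 genes tested, 195 were lower in members (2.35%) and 76 higher (0.914%), and 1341 had an unadjusted p under 0.05. The balance of the counts depended on the fit: 231 were higher and 296 lower without cells holding RNA of other types, 301 and 321 without the deepest 6% of cells, and 322 and 328 with no filter on low counts. Cells of 5000 to 10000 UMIs gave 165 higher and 187 lower, C1q-holding cells left out 118 and 240, and cells thinned to 2000 UMIs 60 and 48. Without the baseline library 39 were higher and 79 lower, without the peak library 168 and 251, and without the resolution library 54 and 116. Of the 22 genes of a nonclassical monocyte list, 16 were lower and none higher, with a median log2 fold change of -1.13 against 0.02 over all genes tested, and 9 of 20 were lower in the thinned cells. Pou2f2 was at 178, 78.8, 118 and 248 CPM in members and 365, 209, 333 and 714 CPM in full-programme cells, a log2 fold change of -1.31 (SE 0.10, adjusted p = 0.000123). Members were below full-programme cells in 4 of 4 libraries, and in sums of cells thinned to 2000 UMIs and selected again by the rules, which the baseline and resolution libraries alone allowed, the adjusted p was 0.0527. Nr4a1, the nuclear receptor that conversion needs, was at 563, 238, 424 and 712 CPM in members and 907, 373, 809 and 1381 CPM in full-programme cells, with a log2 fold change of -0.76 (SE 0.08, adjusted p = 0.00076). Ldlrad3 was lower by less, with a log2 fold change of -0.65 (SE 0.15, adjusted p = 0.0392), and this call was lost without any 1 of the 4 libraries (adjusted p of 0.0709 to 0.171).

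Survival genes were among the lower ones. Bcl2, which protects cells from death and on which nonclassical monocytes depend, was at 18, 6.81, 19.1 and 27.6 CPM in members and 77.8, 31.3, 57.1 and 153 CPM in full-programme cells, a log2 fold change of -2.11 (SE 0.16, adjusted p = 9.72e-05). It was lower in members in 4 of 4 libraries, with an adjusted p of 0.0868 in the thinned sums. Of 12 survival genes 5 were lower and none higher: Bcl2, Cd274 and the near-identical copies Bcl2a1a, Bcl2a1b and Bcl2a1d, among which reads cannot be placed with certainty. Of the nonclassical list, Fabp4, a fatty acid carrier, was at 25.7, 3.92, 1.06 and 55.2 CPM in members and 302, 30.2, 119 and 486 CPM in full-programme cells, a log2 fold change of -3.45 (SE 0.25, adjusted p = 8.9e-05). The lipid-sensing receptor Pparg had a log2 fold change of -2.26 (adjusted p = 0.00187) and the scavenger receptor Cd36 one of -2.12 (adjusted p = 0.0105), the reverse of the CD36 antibody, which was higher in members.

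The most strongly lowered genes also included traffic genes and regulators. S1pr5, the receptor for sphingosine phosphate through which nonclassical monocytes leave the marrow, had a log2 fold change of -2.44 (SE 0.23, adjusted p = 0.000443), with an adjusted p of 0.211 in the thinned sums. Lilra5, an activating receptor, fell to 1.1, 3.71, 2.13 and 3.68 CPM in members, against 39.7, 19, 33.3 and 78.4 CPM in full-programme cells. Ear2, a ribonuclease of monocytes, had a log2 fold change of -2.01 (adjusted p = 8.9e-05), the ion carrier Slc12a2 one of -3.34 (adjusted p = 0.000256), the phosphatase Dusp16 one of -2.17 (adjusted p = 0.00459) and the CD11c gene Itgax one of -2.56 (adjusted p = 0.0114). The Slc12a2 call was lost in the thinned sums (adjusted p = 0.25). Of 19 tested transcription factors of the conversion, 5 were lower and none higher: Nr4a1, Pou2f2, Klf2, Tcf7l2 and Bcl6. Klf2, which keeps blood leukocytes quiet and mobile, was at 551, 272, 391 and 745 CPM in members and 836, 552, 795 and 1415 CPM in full-programme cells, a log2 fold change of -0.84 (SE 0.09, adjusted p = 0.00076). The Bcl6 call was lost in 4 alternatives beside the fit with no library block, and its log2 fold change turned to 0.25 in the thinned sums.

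Genes of the classical programme were higher in members in part. Of 20 classical genes 6 rose and none fell (Ccr2, F13a1, Hp, Mgst1, Lyz2 and Ms4a4c), with a median log2 fold change of 0.62 against 0.02 over all genes, and 12 of 19 rose when cells with RNA of other types were left out. F13a1, a clotting factor subunit of classical monocytes, was at 449.7, 395, 368 and 289 CPM in members and 264, 232, 186 and 66.3 CPM in full-programme cells, a log2 fold change of 1.14 (SE 0.20, adjusted p = 0.0105). Ccr2 was at 676, 1037, 1058 and 517 CPM in members and 510.0, 796, 766 and 194 CPM in full-programme cells, a log2 fold change of 0.68 (SE 0.16, adjusted p = 0.0386), with the largest gap at resolution. Full-programme cells could lack Ly6c2, with a median of 0, 1, 0 and 0 Ly6c2 UMIs. Ly6c2-positive cells with 3 and 4 late genes held 678 and 622 CPM of Ccr2 at baseline, 925 and 891 at peak and 472 and 488 at resolution. At baseline and resolution these values were closer to members than to all full-programme cells. The part of the Ly6c2 cut in the Ccr2 call was not tested. The Ccr2 call was lost without the baseline library (adjusted p = 0.0588), without the plateau library (adjusted p = 0.0802) and without C1q-holding cells (adjusted p = 0.0566), and its log2 fold change was 3.16 in the thinned sums. Chil3, a chitinase-like protein, had a log2 fold change of 1.05 (adjusted p = 0.0977) and Vcan one of 0.43 (adjusted p = 0.376).

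Among other genes higher in members than in full-programme cells were Prtn3, a protease gene of marrow precursors, the chemokine gene Ccl2 and 3 interferon genes. Prtn3, which codes for proteinase 3, was at 279, 52, 30.8 and 462 CPM in members and 53.7, 20.1, 19 and 26.3 CPM in full-programme cells, a log2 fold change of 2.77 (SE 0.37, adjusted p = 0.00288). Without the cells holding RNA of other types, its level was 178, 53.9, 34.1 and 50 CPM in members and 27.5, 20.7, 20.4 and 6.46 CPM in full-programme cells. Ccl2, the ligand of CCR2, was at 268, 422, 1349 and 209.6 CPM in members and 135, 197, 209 and 71.5 CPM in full-programme cells, a log2 fold change of 1.52 (SE 0.22, adjusted p = 0.00462), and was the only gene of 21 tested inflammatory genes to pass, against 7 of 20 higher without the cells holding RNA of other types. Of 22 interferon genes outside the rule 3 rose and none fell (Isg15, Ifi47 and Bst2), with Isg15 at 126, 393, 210.5 and 79.1 CPM in members and 88.3, 243, 66.6 and 44 CPM in full-programme cells. Ms4a7, a membrane protein of macrophages, had a log2 fold change of 1.52 (adjusted p = 0.00537), and the chemokine receptor Ccr1 one of 0.90 (adjusted p = 0.0175). Ctsk, the cathepsin of osteoclasts, also passed at 2.71 but had a log2 fold change of -0.019 without the cells holding RNA of other types. Of 18 genes of adhesion and traffic 2 were higher in members (Ccr1 and Ccr2) and 6 lower (Itga4, Itgb1, Itgb2, S1pr5, Cd9 and Rap1b), and of 17 lysosome and lipid genes 4 were higher (Ctsl, Cd63, Lgals3 and Fabp5) and none lower.

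**Figure D4:**
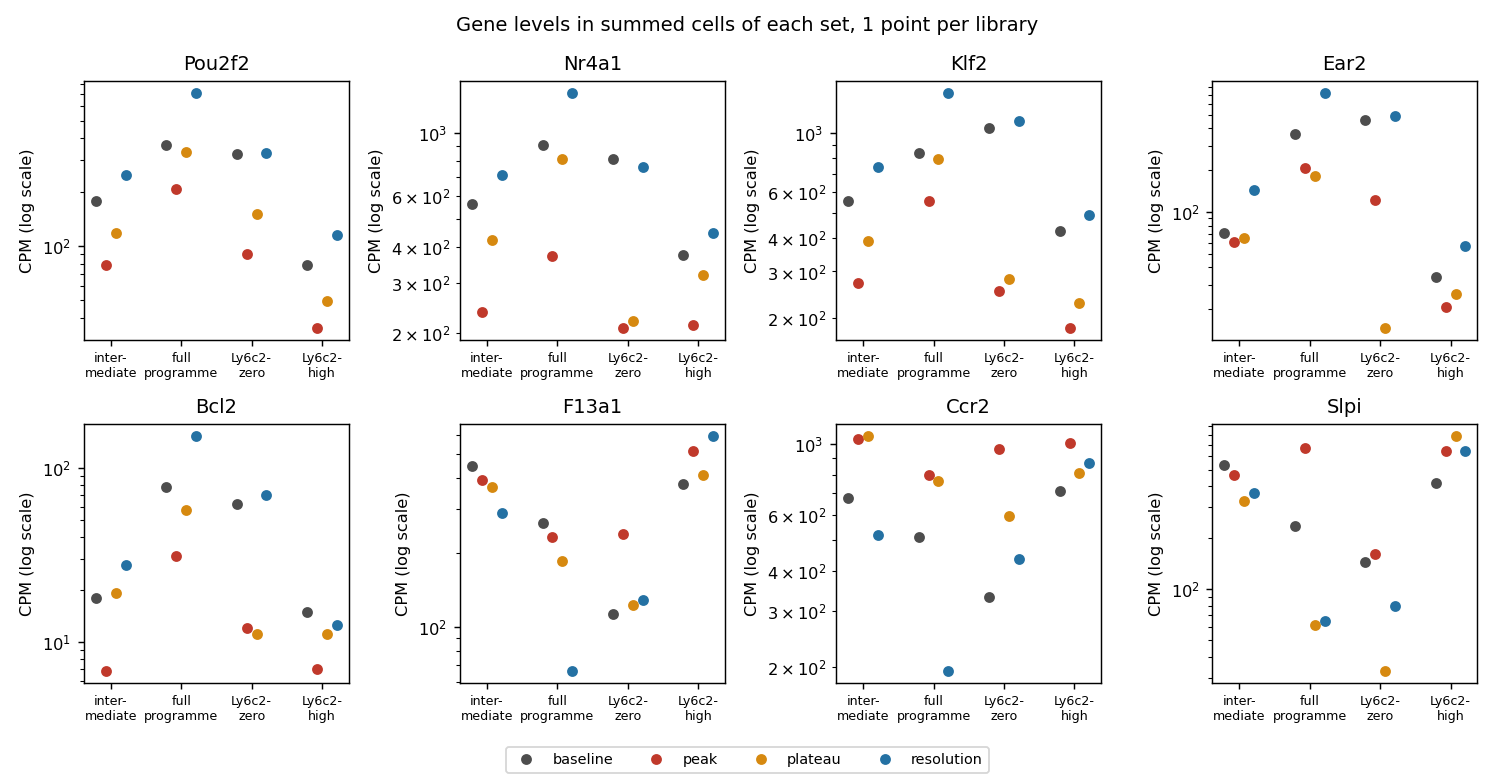
Levels of 8 genes (CPM of summed cells, log scale) in each set, 1 point per library. For Pou2f2, Nr4a1, Klf2, Ear2 and Bcl2 members lay below full-programme cells of the same library and for F13a1 and Ccr2 above them, in 4 of 4 libraries, while Slpi was lower in Ly6c2-zero counterparts than in members in 4 of 4.

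Ly6c2-zero counterparts differed from members in tissue macrophage and classical genes. Of 7278 genes, 49 were higher in members (0.673%) and 45 lower (0.618%), with 32 and 23 without the peak library, 2 and 3 without the resolution library, 26 and 20 without cells holding both CD45 antibodies and 32 and 7 without C1q-holding cells. Of 16 tested tissue macrophage genes 7 were lower in members and none higher (Folr2, Lyve1, Vsig4, Pf4, Aqp1, Fxyd2 and Cd163), with a median log2 fold change of -3.14 against -0.01 over all genes. Cells with at least 5 C1q UMIs made up 0, 11.1%, 7.41% and 2.41% of members and 5.77%, 15.1%, 52.0% and 11.9% of Ly6c2-zero counterparts. Lyve1, a hyaluronan receptor of resident macrophages, was at 1.1, 0, 0 and 7.36 CPM in members and 117, 18.7, 14.7 and 123 CPM in Ly6c2-zero counterparts (adjusted p = 0.00265), and Vsig4, a complement receptor, at 0, 0, 2.13 and 0 CPM and 241, 10.7, 12.3 and 97.1 CPM (adjusted p = 0.0055). With C1q-holding cells left out, Fxyd2 had a log2 fold change of -0.71 (adjusted p = 0.627) and Pf4 one of -0.85 (adjusted p = 0.576).

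Of the 20 classical genes, none fell in members over Ly6c2-zero counterparts and 9 rose, among them F13a1, Hp, Mgst1, Lyz2, Cd177, Ms4a4c, Ifi27l2a and Mmp8. Slpi, a protease inhibitor, was at 532, 463, 327 and 364 CPM in members and 144, 160.5, 33.1 and 79.3 CPM in Ly6c2-zero counterparts, a log2 fold change of 2.25 (SE 0.26, adjusted p = 0.00772). These values did not overlap between the groups, but the Slpi call was lost without the resolution library (adjusted p = 0.0876) and in cells of 5000 to 10000 UMIs (adjusted p = 0.0514). Of 21 nonclassical genes 2 were lower in members (Fcgr4 and Fabp4) and none higher. Pou2f2 had a log2 fold change of -0.37 (SE 0.15, adjusted p = 0.282), Nr4a1 one of 0.21 (SE 0.21, adjusted p = 0.705) and Ldlrad3 one of -0.13 (SE 0.21, adjusted p = 0.842). An adjusted p that misses the threshold does not show that these levels were alike.

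Against Ly6c2-high cells, members carried more RNA of 8 nonclassical genes. They carried less RNA of 4 cell cycle genes, a count that fell to 1 without cells holding RNA of other types. Of 8384 genes, 127 were higher in members (1.51%) and 59 lower (0.704%), with 57 and 18 without the baseline library, 64 and 24 without the peak library, 61 and 10 without the plateau library and 17 and 16 in cells thinned to 2000 UMIs. The lower genes numbered 143 without the deepest 6% of cells. Of 20 tested nonclassical genes 8 rose and none fell (Pou2f2, Csf1r, Tnfrsf1b, Itga4, Gngt2, Stk10, Fabp4 and Klf2), with a median log2 fold change of 0.57 against -0.02 over all genes. Pou2f2 was at 79, 35.1, 49.4 and 116 CPM in Ly6c2-high cells, below its level in members in 4 of 4 libraries, a log2 fold change of 1.12 (SE 0.10, adjusted p = 6.95e-05) for members. Gngt2, a G protein subunit of nonclassical monocytes, was at 451, 535, 485 and 811 CPM in members and 145, 266, 209 and 182 CPM in Ly6c2-high cells, a log2 fold change of 1.41 (SE 0.16, adjusted p = 0.000578). The integrin Itga4 had a log2 fold change of 0.61 (adjusted p = 0.00424) and the kinase Stk10 one of 0.80 (adjusted p = 0.00385), with adjusted p values of 0.157 and 0.309 in the thinned sums. Csf1r and Tnfrsf1b passed narrowly (0.0465 and 0.037 as adjusted p) and lost their calls in 6 alternatives each beyond the fit with no library block. Nr4a1 had a log2 fold change of 0.40 (adjusted p = 0.062) and Ldlrad3 one of 0.62 (adjusted p = 0.124).

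The classical list did not separate members from Ly6c2-high cells in 1 direction. Of its 20 genes 2 were higher in members (Plac8 and Ly6c1) and 2 lower, among them Hp, with a median log2 fold change of -0.13, and Ccr2 had a log2 fold change of -0.14 (SE 0.12, adjusted p = 0.706). The Ly6c1 level of members, 58.7, 15.3, 22.3 and 0 CPM, was 3.79, 1.77, 1.31 and 0 CPM without cells holding RNA of other types, and reads of Ly6c1 and its near copy Ly6c2 can be hard to tell apart. Of 7 fibroblast genes 6 were higher in members, Dcn by 4.73 on the log2 scale, and none were without those cells. Of 15 cell cycle genes 4 were lower in members (Tyms, Rrm2, Stmn1 and Hist1h2ap), and 1 of 14 was without those cells. Rrm2, a subunit of the enzyme that makes deoxynucleotides, was at 75.2, 0.413, 0 and 22.1 CPM in members and 175, 6.49, 3.15 and 69.4 CPM in Ly6c2-high cells. Counted per cell, baseline went the other way: 20% of members and 13.5% of Ly6c2-high cells held at least 10 UMIs of the 15 genes. At peak, plateau and resolution the share was lower in members, at 0.272%, 1.23% and 3.61% against 0.838%, 1.44% and 10.5%. Of 20 inflammatory genes 3 were lower in members (Ccl2, Cxcl3 and Osm) and none higher. Ccl2 was at 271, 874, 2267 and 508 CPM in Ly6c2-high cells and had a log2 fold change of -0.83 (SE 0.14, adjusted p = 0.00646) for members, a call that was lost without the plateau library (adjusted p = 0.0749) and in the thinned sums (adjusted p = 0.355). The glycolytic enzyme Pkm was at 470.2, 979.8, 939 and 506 CPM in members and 659, 1302, 1246 and 699 CPM in Ly6c2-high cells, a log2 fold change of -0.49 (SE 0.07, adjusted p = 0.00322).

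Between stages, 7 of 16 inflammatory genes and 6 of 12 hypoxia and glycolysis genes were at least 2-fold higher in members at peak than at baseline, and 11 of 17 and 4 of 12 were at least 2-fold lower at resolution than at plateau. These contrasts compare 1 library with 1 library and have no test; genes past 2-fold are counted among those that reached 50 CPM in 1 of the 2 libraries and 30 UMIs in their sum, and values are given without the 38 cells that held RNA of other types. At peak against baseline, 165 of 2917 genes were at least 2-fold higher (5.66%) and 137 lower (4.7%), and with the 38 cells 177 of 2913 were higher (6.08%) and 157 lower (5.39%). Plateau against peak gave 48 of 2867 higher (1.67%) and 21 lower (0.732%), and with the 38 cells 55 of 2882 higher (1.91%) and 22 lower (0.763%). Resolution against plateau gave 161 of 3079 higher (5.23%) and 246 lower (7.99%), and with the 38 cells 168 of 3085 higher (5.45%) and 308 lower (9.98%). Resolution against baseline gave 54 of 2885 higher (1.87%) and 34 lower (1.18%), and with the 38 cells 49 of 2842 higher (1.72%) and 48 lower (1.69%). The scale matters for the small contrast: of the genes past 2-fold at plateau against peak with all members, 71.4% were higher with totals of all UMIs and 35.8% with edgeR's TMM totals, under which the median of all genes moved from 0.10 to -0.09 on the log2 scale. At peak against baseline the same share was 53.0% and 63.3%.

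Of 16 tested inflammatory genes 7 were at least 2-fold higher at peak than at baseline and none lower (median log2 ratio 0.84, against -0.03 over all genes). Il1b, the gene of interleukin-1 beta, was at 1234, 3532, 4021 and 1343 CPM from baseline to resolution, and Cxcl2, a chemokine for neutrophils, at 243, 1750.4, 1928 and 735 CPM. Both were highest at plateau, and Cxcl2 at resolution was above its baseline level. At resolution against plateau 11 of 17 inflammatory genes were at least 2-fold lower and none higher, with log2 ratios of -1.58 for Il1b and -1.39 for Cxcl2. Ccl7, a further ligand of CCR2, was at 3.79, 112, 461 and 43.7 CPM and Il1rn, the antagonist of interleukin-1, at 8.06, 119, 215 and 12.5 CPM. Of 11 NF-kB feedback genes 4 (Nfkbia, Nfkbie, Tnfaip3 and Ier3) were at least 2-fold higher at peak than at baseline, and Nfkbia, Nfkbiz, Tnfaip3 and Ier3 were at least 2-fold lower at resolution than at plateau.

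Spp1, Vcan, C5ar1, Ldha, Hif1a, Timp1 and Arg1 were also higher at peak and at plateau than at baseline and at resolution. Spp1, which codes for osteopontin, was at 2.37, 1212, 1652 and 12.5 CPM, a log2 ratio of 8.86 at peak against baseline and -6.93 at resolution against plateau. Vcan, the proteoglycan versican of classical monocytes, was at 31.3, 428, 199 and 33.3 CPM, and Fn1, fibronectin, at 1045, 1068, 2314 and 879 CPM with its highest value at plateau. C5ar1, the receptor for the complement fragment C5a that this arthritis depends on, was at 46, 218, 474 and 60.4 CPM, and the immune complex receptor gene Fcgr1 was, like C5ar1, at least 2-fold higher at peak than at baseline and lower at resolution than at plateau. Of 12 hypoxia and glycolysis genes 6 were at least 2-fold higher at peak than at baseline and none lower, with lactate dehydrogenase Ldha at 209, 541, 595 and 264 CPM and the hypoxia factor Hif1a at 114, 446, 536 and 115 CPM. Timp1, an inhibitor of matrix proteases, was at 1.9, 117, 248 and 0 CPM and the arginine-splitting enzyme Arg1 at 0, 48.3, 165 and 4.16 CPM.

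A part of the nonclassical genes was lower at peak than at baseline. Of 14 tested nonclassical genes 6 were at least 2-fold lower at peak than at baseline and none higher (Pou2f2, Ldlrad3, Nr4a1, Itga4, Stk10 and Klf2), while the other 8 did not pass 2-fold and the median log2 ratio was -0.13 against -0.03 over all genes. At plateau against peak 1 of 14 was higher (Cd36) and none lower, with a median of 0.47 against 0.12 over all genes, beside 0.32 for the inflammatory list, so both medians were above that of all genes. At resolution against plateau 4 of 16 were higher and none lower (Pou2f2, Ldlrad3, Hes1 and Stk10). Without the 38 cells Pou2f2 was at 205, 82.3, 132 and 266 CPM, with a log2 ratio of -1.31 at peak against baseline. Nr4a1 was at 627, 241, 464 and 768 CPM, a log2 ratio of -1.38, and Klf2 at 565, 268, 448 and 816 CPM. The share of members with 1 late gene was also higher at peak and plateau than at baseline and resolution, and its part in these values was not tested.

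The course by stage was not confined to members. In the same libraries Spp1 was at 2.37, 1212, 1652 and 12.5 CPM in members, 5.95, 1471, 2803 and 17.1 CPM in Ly6c2-high cells and 4.3, 773, 2526 and 12.3 CPM in full-programme cells, and Il1b at 1661, 3227, 4563 and 1507 CPM in Ly6c2-high cells and 1385, 3776, 4603 and 1073 CPM in full-programme cells. Pou2f2 was at 110.1, 35.5, 55.8 and 117 CPM in Ly6c2-high cells and 421, 215, 387 and 725 CPM in full-programme cells, so members lay between them at each stage. The sets share libraries, which gives no independent view of the stages.

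**Figure D5:**
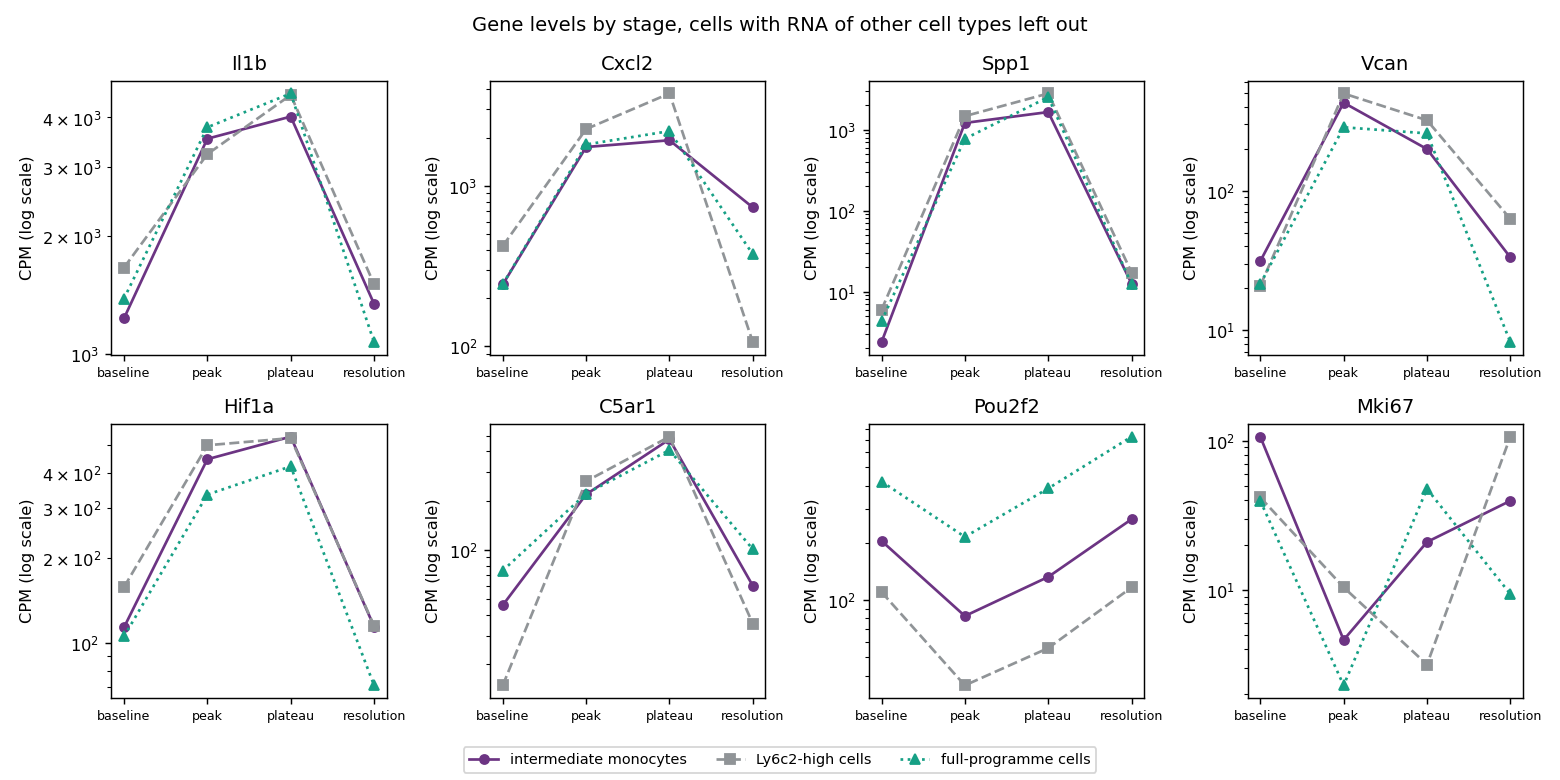
Levels of 8 genes by stage (CPM of summed cells, log scale) in Ly6c2 intermediate monocytes, Ly6c2-high cells and full-programme cells, with cells holding RNA of other types left out and 1 library per stage. Il1b, Cxcl2, Spp1, Vcan, Hif1a and C5ar1 were higher at peak and plateau than at baseline in each set, and Pou2f2 was lowest at peak with members between the other sets.

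Resolution and baseline members differed in few genes, among them macrophage genes. The complement gene C1qb was at 3.32, 167, 193 and 110.3 CPM from baseline to resolution and Pf4 at 3.32, 8.83, 19.7 and 68.7 CPM, and of 8 tested tissue macrophage genes 5 were at least 2-fold higher at resolution than at baseline (C1qa, C1qb, C1qc, Pf4 and Fxyd2). Cells with at least 5 C1q UMIs moved with this, at 0 of 160 baseline members and 2 of 83 resolution members (2.41%). Both of these resolution cells held at least 20 C1q UMIs. How far these 2 cells carried the macrophage genes at resolution is not given here. The MHC class II gene H2-Aa was at 466, 1197, 1251 and 1095 CPM, and 3 of 10 genes of its list (H2-Aa, H2-Eb1 and Cd74) were at least 2-fold higher at resolution than at baseline. With all 83 members, the largest ratios at resolution against plateau were those of Camp, Ngp, S100a9 and Elane, and 2 members held 100% of the Ngp, Camp and Ltf UMIs there.

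Cell cycle RNA was found in a larger share of members at baseline than at the other stages. At least 10 UMIs of the 15 cell cycle genes were held by 32 of 160 members at baseline (20%, interval 14.1 to 27.0), 1 of 368 at peak (0.272%), 1 of 81 at plateau (1.23%) and 3 of 83 at resolution (3.61%). Without cells holding RNA of other types the counts were 19 of 139 (13.7%), 0 of 359, 1 of 75 and 1 of 81. After thinning, 3 UMIs of the list were held by 17.5%, 0.272%, 2.47% and 2.44% of members. Mki67, a protein of dividing cells, was at 106, 4.63, 21 and 39.6 CPM and Top2a, a topoisomerase of the late cell cycle, at 92.9, 1.32, 15.7 and 45.8 CPM without those cells. At baseline the share with 10 UMIs was 20% in members, 10.3% in full-programme cells, 13.5% in Ly6c2-high cells, 1.92% in Ly6c2-zero counterparts and 10.6% in all kept cells. Without cells holding RNA of other types these shares were 13.7%, 5.13%, 4.76%, 2% and 6.05%, and members were the deepest of these sets. All kept cells also had their largest share at baseline, with 10.6%, 2.07%, 5.76% and 2.86% from baseline to resolution. At resolution the share was higher in Ly6c2-high cells than in members, at 10.5% against 3.61%. Without cells holding RNA of other types it was 10.5% against 1.23%.

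Most members that could be scored were of donor origin at each stage. Of members with at least 10 UMIs of the CD45.1 and CD45.2 antibodies together, 117 of 132 at baseline were donor cells, with a CD45.1 part of at least 0.8 (88.6%, interval 82.0 to 93.5). The counts were 354 of 363 at peak (97.5%), 80 of 80 at plateau (100%) and 29 of 35 at resolution (82.9%, 66.4 to 93.4). At resolution 35 of 83 members could be scored, and a CD45.1 part of at least 0.9 gave 57.1% there (39.4 to 73.7). With the limits of 0.8 and 0.2, recipient cells (a CD45.1 part of at most 0.2) numbered 3, 0, 0 and 1, and the others lay between. Over all kept cells the donor share was 73.5%, 94.8%, 91.1% and 68.9%, and over Ly6c2-high cells 77.8%, 98.3%, 96.5% and 69.0%. A member with a mixed CD45 signal can be 2 cells in 1 droplet, and cells with at least 10 UMIs of both antibodies were 10 of 160 at baseline and none at resolution. A pair of donor cells in 1 droplet would show no mixed signal, and whether members held such pairs was not tested. At baseline and peak 13.8% and 10.1% of members were among the deepest 6% of kept cells. The shares were 8.70% and 14.1% for full-programme cells and 0 and 0.838% for Ly6c2-high cells. The limit below is that of 10 UMIs of both antibodies. That limit was harder to reach at resolution, where members held a median of 7 CD45.1 and 1 CD45.2 UMIs, against 17 and 1 at baseline.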

How the data were processed

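RNA and antibodies were measured in 4 libraries of sorted mouse synovial cells. The deposited matrices hold raw UMI counts, which the authors did not normalize, for 32285 genes and 92 antibodies per cell barcode. They come from Cell Ranger 6.1.2, per the file headers, and mm10, per the submitters' processing notes, which also list Seurat 4.4.0 with no role. The deposited antibody list was read for names and tag sequences.

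Barcodes were kept from 300 genes upward and up to 10% mitochondrial UMIs (1071, 5941, 2828 and 4611 of 1128, 6490, 3104 and 4779 barcodes from baseline to resolution). The libraries held 12015315, 59816482, 30781729 and 27250421 gene UMIs and 2214675, 6723223, 2684149 and 2387955 antibody UMIs. No doublet caller was used, and cells with both CD45 antibodies were left out as an alternative, which finds no pair of donor cells. Cell sets were compared with edgeR 4.0.16 (TMM, low-count filter, quasi-likelihood test, library as block) in R 4.3.3 on UMIs summed per library and set, with Benjamini-Hochberg adjustment over all genes or antibodies tested and an adjusted p threshold of 0.05. DESeq2 1.42.0 was an alternative. The p values measure how the difference between 2 sets of the same library spreads over 4 libraries of different stages. Stages were set side by side as log2 CPM ratios after adding 0.5 counts, and intervals are exact (Clopper-Pearson, 95%). The scripts were tested on simulated data, with Python 3.11.15, numpy 2.4.6, scipy 1.17.1, pandas 2.3.3 and matplotlib 3.10.9.

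Members, cell sets and gene lists were chosen with earlier results of these data known. Named genes are the 12 largest changes in each direction past the threshold with 1 sign in all libraries and at least 20 CPM, the 8 largest stage ratios in each direction (12 without cells holding RNA of other types), 2 genes of each list, and the rule genes and markers. The naming passed over mitochondrial, ribosomal, globin, sex-linked and antigen receptor genes and gene models with no name. Other genes were named after their values were seen. A gene and its antibody are not reported here.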

Additional observations from a re-analysis of the deposited data

How the results depend on the processing

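Stages could not be paired, because each stage had 1 library. The library block pairs the sets of 1 library. The settings without cells holding RNA of other types, without the deepest 6% of cells, with cells of 5000 to 10000 UMIs and, for antibodies, without C1q-holding cells were chosen after seeing the data. Share of members: thinning gave 2.83%, 0.218%, 0.249% and 0.743% from baseline to resolution, without C1q-holding cells baseline was 18.4% and resolution 2.97%, at least 2 Ly6c2 UMIs gave 4.97% at peak and 1.06% at resolution, without other RNA plateau was 3.88%, and the depth window gave 2.64% at resolution. Counts of genes are given as higher and lower in members. Against full-programme cells no low-count filter gave 322 and 328, no block 0 and 0, the deepest cells out 301 and 321, other RNA out 231 and 296, C1q out 118 higher, the window 165 higher and thinning 48 lower. Against Ly6c2-zero counterparts no filter gave 383 and 219, no block 0 and 0, DESeq2 83 higher, thinning 28 and 20, CD45 doublets out 26 and 20, C1q out 32 and 7, the window 23 higher and other RNA out 70 lower. Against Ly6c2-high cells no filter gave 289 and 198, no block 0 and 0, thinning 17 and 16, DESeq2 35 lower, the deepest cells out 143 lower and the window 127 lower. Antibodies against full-programme cells gave 0 and 0 without block or without C1q, and 6 and 1 without CD45 doublets. Against Ly6c2-zero counterparts they gave 5 higher with DESeq2 size factors, 0 and 0 without block, 2 and 1 without CD45 doublets, 3 and 0 without C1q and 3 higher without other RNA. Leaving out 1 library gave 39 to 168 higher and 79 to 251 lower genes against full-programme cells, 2 to 46 and 3 to 48 against Ly6c2-zero counterparts, and 57 to 140 and 10 to 88 against Ly6c2-high cells. For antibodies the ranges were 0 to 5 and 0 to 5, 3 to 6 and 1 to 5, and 0 and 0. Stage counts with 20 CPM and 10 UMIs as minimum were 307 and 381 for peak against baseline, 154 and 48 for plateau against peak, 420 and 610 for resolution against plateau and 153 and 188 for resolution against baseline. TMM totals gave 24 and 43 for plateau against peak. A CD45.1 part of 0.9 gave donor shares of 75.8% at baseline, 92.0% at peak and 57.1% at resolution. Sign changes were listed for tested genes that passed in either fit and for stage ratios past 2-fold. They were Bcl6 against full-programme cells (0.25, thinned), Ctsk against them (-0.22 in the window, -0.019 without other RNA), Dcn against Ly6c2-high cells (-0.47 without other RNA), Top2a and Mki67 at resolution against plateau (-1.02 and -4.23 without the deepest cells), Chil3 there (-0.051 without other RNA) and Elane at resolution against baseline (-3.89 without the deepest cells, -6.86 without other RNA). Values that passed in neither fit also changed sign and are not listed, such as Ccr2 against Ly6c2-high cells (-0.39 to 0.045 over the alternatives). Of 1932 values for single genes, 1561 were classed as unchanged. This class includes values that changed sign but passed in neither fit, so it is no count of kept directions. The 1932 values also include stage ratios, which have no test and no adjusted p threshold. The causes of the changes were not tested. Depth, 17 full-programme cells at plateau and 1 library per stage limit the precision.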

Other observations

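The RNA and the antibody of CD36 went opposite ways in members against full-programme cells. Cd36 RNA was at 9.9, 17.9, 63.8 and 97.5 CPM in members from baseline to resolution, against 163, 44.8, 148 and 359 CPM in full-programme cells, lower in members in 4 of 4 libraries. The CD36 antibody took 1.14, 0.181, 0.196 and 0.715% of antibody UMIs in members, against 0.665, 0.093, 0.161 and 0.181% in full-programme cells, higher in members in 4 of 4 libraries. In Ly6c2-high cells, with 2.13, 14.1, 24.2 and 5.69 CPM of Cd36 RNA, the antibody took 1.15, 0.191, 0.328 and 1.07%.

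Areg, a growth factor of tissue repair, was at 9.9, 31.6, 24.4 and 123 CPM in members, 0, 1.34, 15.9 and 17.8 CPM in Ly6c2-zero counterparts and 2.13, 27.2, 26.8 and 6.82 CPM in Ly6c2-high cells, with its highest member value at resolution. The edgeR call of Areg against Ly6c2-zero counterparts (log2 fold change 2.39) was lost in 7 of 13 alternatives. At peak and plateau its levels in members and Ly6c2-high cells were close. Ifitm1, a membrane protein induced by interferon, was at 10.4, 434, 119 and 10.4 CPM from baseline to resolution and was highest at peak.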
